A study of Mus musculus with 24 samples.

Results

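The 10 genes that follow bone formation from osteoblast commitment to the osteocyte were measured by RNA sequencing in 24 tissue constructs. They were taken by symbol and are the 10 genes Runx2, Sp7, Alpl, Ibsp, Spp1, Bglap, Bglap2, Bglap3, Dmp1 and Phex among the 51138 genes counted. All 10 had at least 10 counts in total and were among the 30564 genes tested. Each construct consisted of ceramic granules, biphasic calcium phosphate (BCP), which serve as a substitute for bone, placed under the skin of male and female Foxp3-DTR/eGFP mice aged 8 to 9 weeks and collected after 2 weeks. In this strain the receptor for diphtheria toxin is made by cells that express Foxp3, so the toxin removes such cells, chiefly regulatory T cells (Treg).

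The 6 groups had 4 constructs each, from 4 mice. The granules were implanted without cells (BCP), with mesenchymal stromal cells of mouse bone marrow (BCP+MSC), with MSC after exposure to 10 nM resolvin E1, a lipid that helps to end inflammation (BCP+MSC+RvE1), or with MSC cocultured with Treg (BCP+MSC+Treg). In mice given diphtheria toxin, the granules carried MSC either alone, (dep)BCP+MSC, or with local injections of 1 uM RvE1, (dep)BCP+MSC+RvE1inj. The header of the count table also names 4 alignments with RVE in their name that have no column and are not analysed here, and the RvE1 constructs were matched by the titles of the samples. Toxin and loss of Treg cannot be told apart in these groups, since no toxin was given with Treg retained. RvE1 and the daily local injections cannot be told apart either, since the study describes no local injection without RvE1. The RNA came from the whole construct, with seeded and host cells together, so that fewer cells of a type and less RNA per cell cannot be told apart.

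Osteoblasts arise from mesenchymal progenitors under the transcription factor Runx2 and, after it, Sp7 (osterix). Maturing osteoblasts make alkaline phosphatase (Alpl), which frees phosphate for mineral, and secrete bone sialoprotein (Ibsp), osteopontin (Spp1) and osteocalcin (Bglap, Bglap2) into the matrix. Cells buried in the matrix become osteocytes, which make Dmp1 and Phex, a pair of proteins that control mineral and phosphate. Osteopontin is also made in quantity by macrophages.

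The control regions of 3 of these genes are shown, of Ibsp, which was called against BCP in each of the 3 groups with MSC in mice not given toxin, and of Bglap and Bglap3, a pair of osteocalcin genes with different patterns. Each run holds the 250 bases before the start of the gene in RefSeq on GRCm38.p6, read on the strand of the gene, and capitals mark the letters ACCACA, the reverse complement of TGTGGT, a core of the sites that Runx proteins bind. Bglap and Bglap3 lie on the minus strand at chr3:88384467-88384716 and chr3:88372742-88372991, the latter for 1 of 3 listed starts. Ibsp lies on the plus strand at chr5:104299037-104299286.
Bglap: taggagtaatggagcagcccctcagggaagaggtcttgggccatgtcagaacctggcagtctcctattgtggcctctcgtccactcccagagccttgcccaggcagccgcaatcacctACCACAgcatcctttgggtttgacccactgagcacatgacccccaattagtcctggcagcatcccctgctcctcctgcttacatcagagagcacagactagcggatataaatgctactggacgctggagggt
Bglap3: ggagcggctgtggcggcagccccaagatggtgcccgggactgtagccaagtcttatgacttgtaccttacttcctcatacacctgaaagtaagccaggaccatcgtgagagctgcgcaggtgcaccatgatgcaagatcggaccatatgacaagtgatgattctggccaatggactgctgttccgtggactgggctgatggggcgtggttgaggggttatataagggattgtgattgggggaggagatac
Ibsp: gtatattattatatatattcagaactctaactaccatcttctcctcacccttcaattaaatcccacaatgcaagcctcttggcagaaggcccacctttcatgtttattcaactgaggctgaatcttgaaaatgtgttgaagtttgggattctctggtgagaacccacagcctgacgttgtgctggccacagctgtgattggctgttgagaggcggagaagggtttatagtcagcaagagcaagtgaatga

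TGTGGT was searched on both strands in 13 windows of 300 bases around the starts of 8 of the 10 genes, since Sp7 and Bglap2 had no entry. Of the 13 windows 4 held it (30.8%), against 16.8% of 32851 windows of all genes. They were the 1 window of Bglap, at position -132 from the start, 1 of 2 windows of Spp1, at -128, 1 of 2 windows of Dmp1, at -164, and the 1 window of Runx2, at -80 and at 2 places after the start. The letters were not in these windows of Ibsp, Bglap3, Alpl or Phex. The window of Bglap was 53.1% identical to that of Bglap3 shown above over the alignment.

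The osteocalcin genes lie side by side on the minus strand of chromosome 3 (GRCm38), Bglap from 88383501 to 88384464, Bglap2 from 88377736 to 88378699 and Bglap3 from 88368616 to 88372743. Bglap and Bglap2 transcripts were 98.9% identical over 439 aligned bases, and Bglap and Bglap3 transcripts 65.7% over 645. Of the 100-base stretches of the Bglap transcripts, 61.3% were in no transcript of the other two genes, against 43.0% for Bglap2 and 99.0% for Bglap3. Read pairs with several alignments were not counted. The counts of Bglap and Bglap2 are therefore uncertain, and those of Bglap3 much less so.

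Dmp1, Ibsp and Spp1 lie in this order on the plus strand of chromosome 5 of the same build, Dmp1 from 104202613 to 104214102, Ibsp from 104299171 to 104311469 and Spp1 from 104435118 to 104441050. On the minus strand Sp7 lies on chromosome 15 from 102356609 to 102366325, Alpl on chromosome 4 from 137741733 to 137796384 and Phex on chromosome X from 157162075 to 157415312. On the same strand the predicted gene Gm42793 overlaps Spp1, and Gm15172 and Gm25795 overlap Phex, in the GENCODE M21 annotation. Reads from any shared exon would be left out, but whether counted exons are shared was not tested.

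Total counts per construct ran from 8482701 to 144417743, a 17.0-fold range. The floor of 3 counts equalled 0.299 CPM (counts scaled to the library size with TMM factors) in the shallowest construct and 0.0223 CPM in the deepest, which covers counting error only. In the (dep)BCP+MSC group 2 constructs were matched to a sample by number, and the other 2 columns carry numbers that differ from those of the samples and were matched to the group only. In the edgeR model without covariates, no adjusted p-value under 0.05 with a log2 fold change beyond 1 was reached by any gene outside the comparison of (dep)BCP+MSC with BCP+MSC and the test over all 6 groups. A gene is called different here at an unadjusted p-value under 0.05 with a log2 fold change beyond 1 in edgeR's quasi-likelihood test. The study's results text names a p-value and its methods an adjusted p-value, so the adjusted p-value is given beside it. Log2 fold changes are estimates of that model. The comparisons share BCP+MSC, BCP or (dep)BCP+MSC constructs and are not independent of each other.

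The 10 genes spanned a wide range of levels. Per kilobase of exon, the mean over all constructs was 2502 CPM for Spp1, which was above 99.95% of the genes tested. Runx2 had 2.28 CPM per kilobase, Alpl 0.894 and Ibsp 0.613. Bglap3 had 0.299, Dmp1 0.236, Bglap 0.107 and Bglap2 0.101 CPM per kilobase, and Sp7 and Phex were lowest with 0.0578 and 0.0278. Runx2, Alpl and Spp1 were counted in every construct. Ibsp was at 0 counts in 6 constructs, Bglap in 7, Bglap3 in 7 and Bglap2 in 17. The colour map of counts shows Spp1 as the 1 abundant gene and the osteocalcins as scattered low counts.

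**Figure D1:**
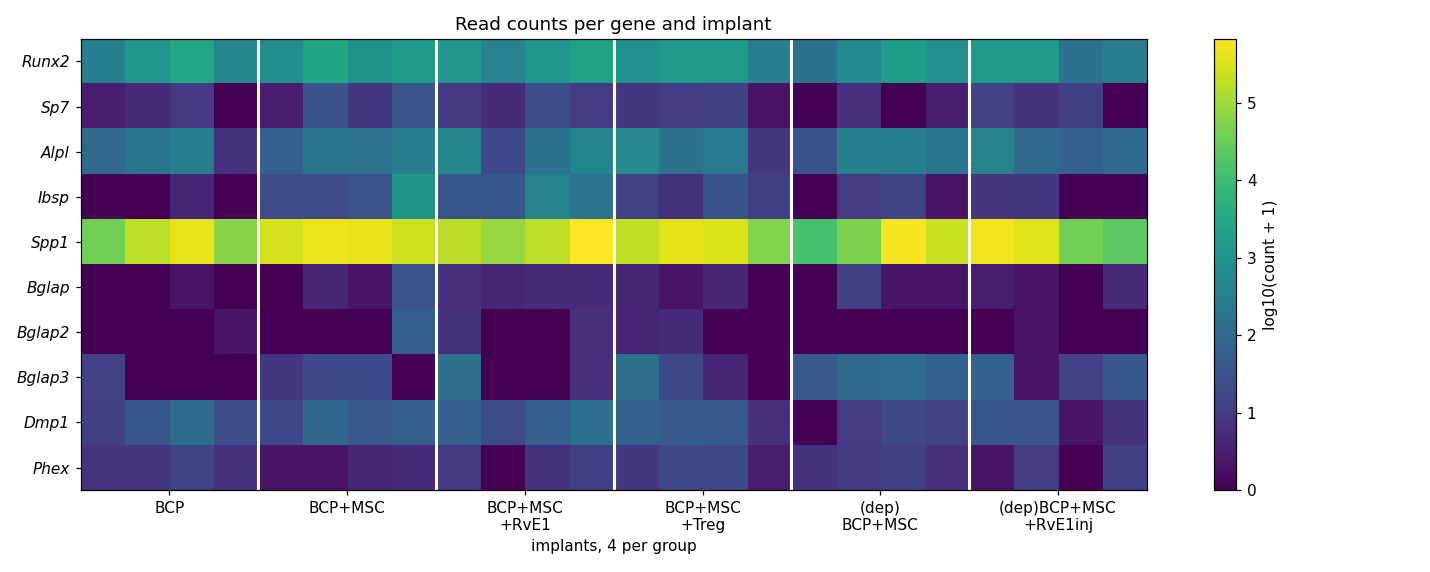
Read counts of the 10 genes (rows, from early to late) in the 24 constructs (columns, 4 per group, separated by white lines), as log10(count + 1) in colour. Spp1 has 13287 to 662972 counts in every construct, whereas Ibsp has 0 to 3 counts in the BCP constructs and 1040 in the fourth BCP+MSC construct.

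Over the 6 groups, edgeR's test for any difference between groups gave an adjusted p-value of 0.00225 for Ibsp and 0.041 for Dmp1. At an adjusted p-value under 0.05, 4.75% of all genes tested differed between groups. The adjusted p-value was 0.153 for Bglap2 and between 0.348 and 0.92 for the other 7 genes. Ibsp remained under 0.05 without each construct in turn, with adjusted p-values up to 0.0102 over 24 fits. Dmp1 did so in 6 of the 24 fits, with adjusted p-values from 0.0409 to 0.0909.

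Runx2, the factor that starts the osteoblast programme, was present at similar levels in all groups. In BCP it was at 21.1, 20.7, 25.3 and 28.0 CPM, and in BCP+MSC at 20.4, 39.7, 15.9 and 22.8 CPM. In BCP+MSC+RvE1 it was at 14.5, 22.4, 21.3 and 17.2 CPM, and in BCP+MSC+Treg at 11.3, 21.9, 20.5 and 26.1 CPM. In (dep)BCP+MSC the values were 15.8, 14.2, 21.4 and 18.3 CPM and in (dep)BCP+MSC+RvE1inj 18.6, 17.9, 11.8 and 17.6 CPM. The groups overlapped, and the group means went from 24.7 ± 10.4 CPM in BCP+MSC to 16.5 ± 3.15 CPM in (dep)BCP+MSC+RvE1inj (SD, n = 4). Its smallest p-value among the 8 comparisons was that of (dep)BCP+MSC against BCP+MSC, with a log2 fold change of -0.50 ± 0.26 (SE, edgeR, unadjusted p = 0.0695, adjusted p = 0.289). Runx2 spans chromosome 17 from 44495987 to 44814797 on the minus strand, and Supt3 and 3 antisense RNAs overlap it on the other strand. Reads were counted without regard to strand, so those from any shared exon would be left out. Whether counted exons of Runx2 are shared was not tested.

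Sp7, the factor that acts after Runx2, had few counts in every group. It had 200 counts in all, between 0 and 31 per construct, and 16 of 24 constructs had more than 3. Its mean was 0.282 ± 0.414 CPM in (dep)BCP+MSC+RvE1inj, 0.272 ± 0.209 in BCP+MSC, 0.218 ± 0.161 in BCP+MSC+RvE1, 0.129 ± 0.0423 in BCP+MSC+Treg, 0.0655 ± 0.0483 in BCP and 0.0406 ± 0.0568 in (dep)BCP+MSC (SD, n = 4). The higher values were 31 and 29 counts in the fourth and second BCP+MSC constructs, 23 counts in the third BCP+MSC+RvE1 construct and 12 counts in the third (dep)BCP+MSC+RvE1inj construct, which is a shallow one. The single values overlapped between groups in every comparison.

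Alpl, the phosphatase of early mineralisation, varied more within groups than between them. It was at 5.83, 3.34, 2.53 and 0.378 CPM in BCP and at 1.69, 2.69, 2.75 and 4.43 CPM in BCP+MSC. It was at 6.38, 1.08, 2.95 and 3.20 CPM in BCP+MSC+RvE1 and at 7.08, 2.53, 3.18 and 0.658 CPM in BCP+MSC+Treg. In (dep)BCP+MSC it was at 2.79, 8.29, 4.09 and 3.69 CPM and in (dep)BCP+MSC+RvE1inj at 4.63, 1.40, 4.63 and 6.28 CPM. Each group held a construct below 3 CPM and one above 4 CPM. Group means ran from 2.89 ± 1.13 CPM in BCP+MSC to 4.72 ± 2.44 CPM in (dep)BCP+MSC (SD, n = 4), and the adjusted p-value over all groups was 0.92 (edgeR).

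Spp1, osteopontin, took 0.11% to 0.778% of all counts of a construct. In BCP it was at 2276, 3152, 3265 and 3892 CPM, and in BCP+MSC at 7167, 7022, 6958 and 3586 CPM. In BCP+MSC+RvE1 it was at 2305, 5021, 3320 and 4936 CPM, and in BCP+MSC+Treg at 2405, 6184, 4449 and 4509 CPM. In (dep)BCP+MSC it was at 1325, 1116, 6537 and 4500 CPM, and in (dep)BCP+MSC+RvE1inj at 5846, 5003, 2876 and 1322 CPM. Of the BCP+MSC constructs 3 were above every BCP construct and the fourth lay between the 2 highest of them. The log2 fold change of BCP+MSC against BCP was 0.97 ± 0.48 (SE, edgeR, unadjusted p = 0.0522, adjusted p = 0.888), and it became 1.14 (unadjusted p = 0.033) without the fourth BCP+MSC construct. The gene C920009B18Rik, the potassium channel subunit Kcnab2 and Fxyd5 were most like Spp1 over the 24 constructs, with Pearson r from 0.84 to 0.86. The summed level of 10 macrophage genes was 14456 to 17981 CPM in BCP and 12178 to 15395 CPM in BCP+MSC, and 6577 to 13214 CPM in (dep)BCP+MSC. None of these genes was at 0 in any group. Their part in the level of Spp1 was not tested.

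Ibsp, bone sialoprotein, was almost absent from constructs without MSC and was counted in every construct with MSC in mice not given toxin. In BCP it had 0, 0, 3 and 0 counts. In BCP+MSC it was at 0.546, 0.305, 0.497 and 15.4 CPM, in BCP+MSC+RvE1 at 0.476, 2.17, 7.55 and 1.23 CPM, and in BCP+MSC+Treg at 0.171, 0.0971, 0.392 and 0.904 CPM. These 3 groups had no value as low as the highest BCP value of 0.0241 CPM. In (dep)BCP+MSC it was at 0, 0.241, 0.176 and 0.021 CPM, and in (dep)BCP+MSC+RvE1inj at 0.0818, 0.108, 0 and 0 CPM. The order of the group means was thus 4.20 CPM in BCP+MSC, 2.85 after RvE1 priming, 0.391 with Treg, 0.11 in (dep)BCP+MSC, 0.0474 in (dep)BCP+MSC+RvE1inj and 0.00602 in BCP.

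The fourth BCP+MSC construct held 1040 of the 1110 Ibsp counts of its group (93.7%), and the third BCP+MSC+RvE1 construct 399 of 635 (62.8%). Without the fourth construct the mean of BCP+MSC was 0.449 ± 0.127 CPM (SD, n = 3). The panel of levels shows this construct far above the rest of its group for Ibsp, Bglap and Bglap2, and below it for Spp1. Its Runx2 level, 22.8 CPM, lay between those of its group.

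**Figure D2:**
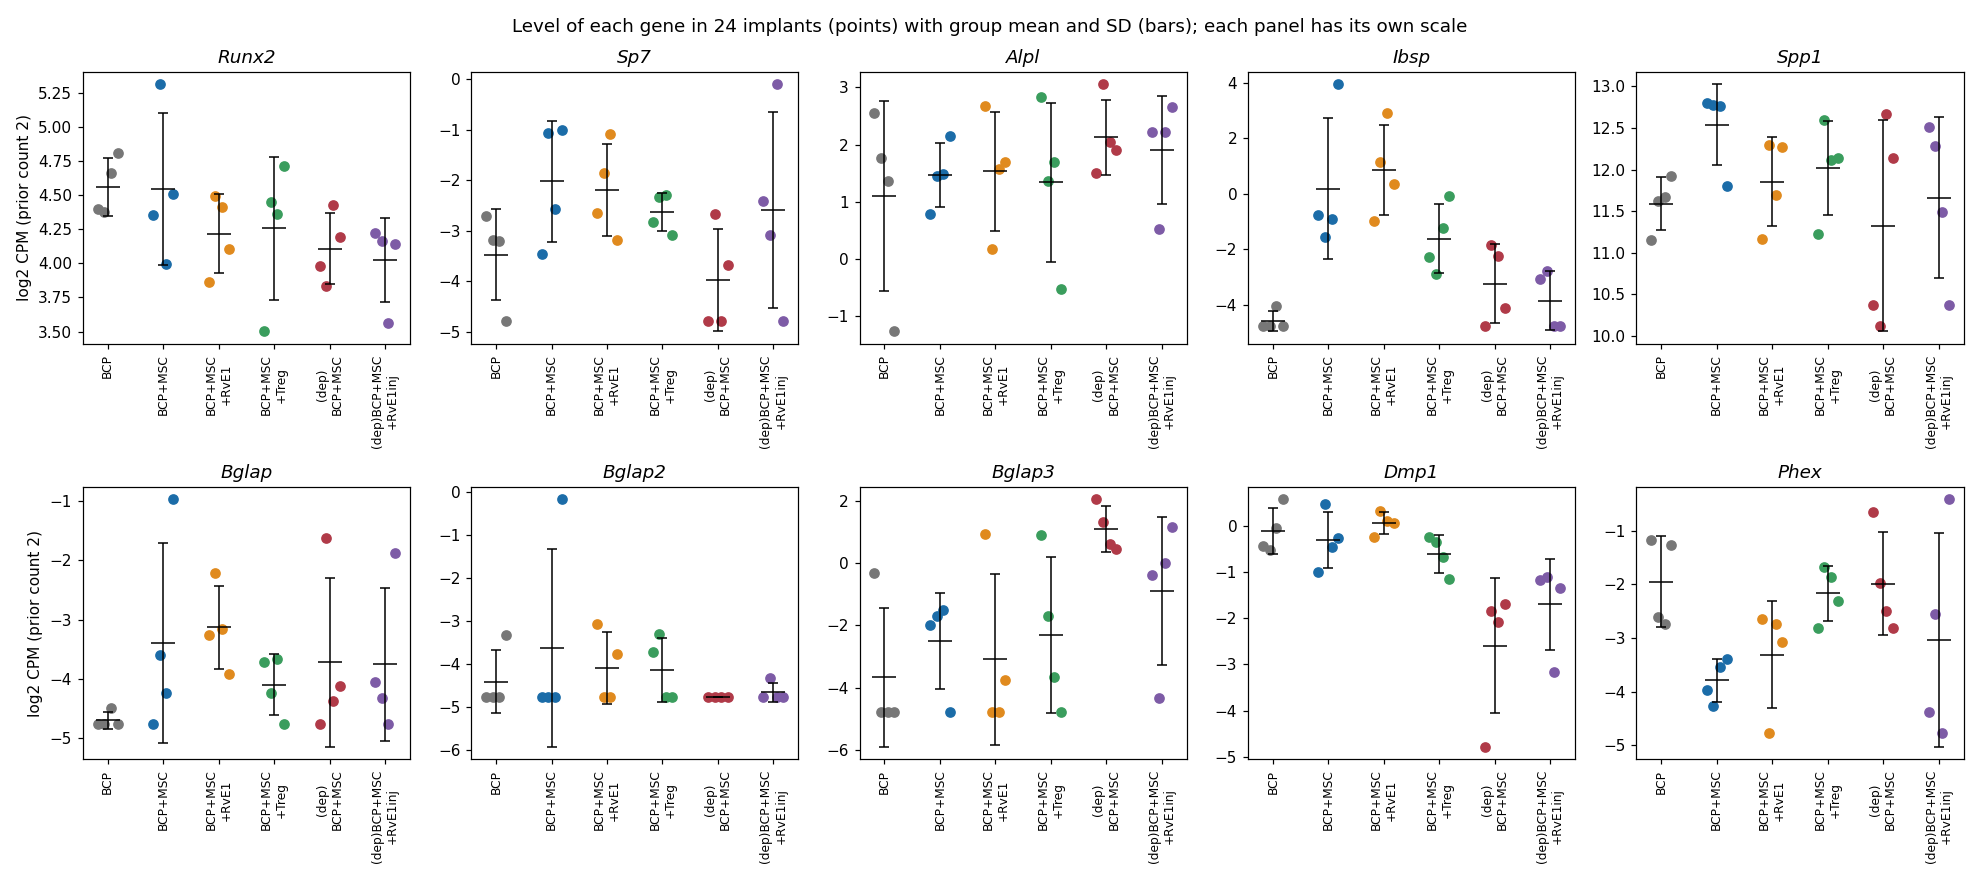
Level of each gene as log2 CPM (prior count 2, vertical axis, own scale in each panel) in the 6 groups (horizontal axis); points are constructs and bars the mean ± SD of 4. Ibsp is lowest in BCP and Dmp1 lowest in (dep)BCP+MSC, while Runx2 and Alpl overlap between all groups.

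In BCP+MSC against BCP, Ibsp, Bglap and Bglap2 were called higher and Phex lower, a count of 3 higher and 1 lower among the 10 genes, and the calls of Bglap and Bglap2 rested on 1 construct. Of all genes tested 2.49% were called higher and 1.83% lower in this comparison. The mean of Ibsp in BCP+MSC was at least 37.9-fold higher than the BCP floor of 3 counts per library, and at least 4.06-fold without the fourth construct. Its fitted log2 fold change was 8.19 ± 1.64 (SE, edgeR, unadjusted p = 5.5e-05, adjusted p = 0.718), and 4.96 (unadjusted p = 0.000343) without that construct. Without the third BCP construct, the only BCP construct with Ibsp counts, the fitted value of Ibsp was 10.8. Its adjusted p-value ranged from 4.44e-05 to 0.944 over 9 other settings and was under 0.05 in 2 of them, DESeq2 (8.30, 4.44e-05) and edgeR with the mean of skin genes as a covariate, chosen after seeing the data (8.59, 0.0219). The groups did not overlap (exact permutation test, p = 0.0286, the smallest p-value that 4 against 4 allows), as was so for 1.81% of all genes tested.

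The 2 osteocalcin calls against BCP came from the same construct. Bglap had 0, 3, 1 and 32 counts in BCP+MSC and 0, 0, 1 and 0 in BCP, a mean at least 1.21-fold above the BCP floor per library (edgeR, unadjusted p = 0.00878, adjusted p = 0.888). Bglap2 had 57 counts in the fourth BCP+MSC construct and 0 in the other 3, against 0, 0, 0 and 1 in BCP, a mean at least 1.91-fold above that floor (unadjusted p = 0.0304, adjusted p = 0.888). Without that construct neither was called (edgeR, unadjusted p = 0.197 for Bglap and 0.284 for Bglap2). The exact permutation test gave p = 0.143 for Bglap and p = 1 for Bglap2.

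Phex, the osteocyte endopeptidase, was lower in BCP+MSC than in BCP. It had 1, 1, 3 and 4 counts in BCP+MSC and 7, 7, 14 and 6 in BCP, so the groups did not overlap in counts. The fitted log2 fold change was -2.57 ± 0.99 (SE, edgeR, unadjusted p = 0.0162, adjusted p = 0.888), and the exact permutation test on log2 CPM gave p = 0.0286. Without the fourth BCP+MSC construct the called genes were Ibsp and Spp1, higher, and Phex, lower. Neither Sp7 (1.98 ± 1.03, SE, unadjusted p = 0.0649) nor Runx2, Alpl, Dmp1 or Bglap3 was called in this comparison.

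MSC primed with RvE1 gave 2 genes higher than BCP, Ibsp and Bglap, and 0 lower. Of all genes tested 5.36% were higher and 3.18% lower. Ibsp was at least 25.8-fold above the BCP floor per library (fitted log2 fold change 7.63 ± 1.62, SE, edgeR, unadjusted p = 0.000112, adjusted p = 0.3). Without the third BCP+MSC+RvE1 construct it was at least 11.7-fold above the floor, and the fitted value was 6.47 (unadjusted p = 0.000384, adjusted p = 0.202). Without the third BCP construct the fitted value of Ibsp was 10.2. Over the 9 other settings its adjusted p-value ranged from 0.000207 to 0.363 and was under 0.05 in the same 2, DESeq2 (7.79, 0.000207) and the skin covariate (8.23, 0.0397). Bglap had 5, 3, 4 and 4 counts in BCP+MSC+RvE1 (edgeR, unadjusted p = 0.0297, adjusted p = 0.301). All 4 values of both genes lay above BCP (exact permutation test, p = 0.0286), and 10.6% of all genes did not overlap between these groups. For Bglap the mean of 0.0885 CPM was under the BCP floor, so no fold is given. The summed level of 8 neutrophil genes was 321 to 515 CPM in BCP+MSC+RvE1, above the 158 to 310 CPM of BCP and the 154 to 291 CPM of BCP+MSC, and that of 8 skeletal muscle genes had a median of 24966 CPM against 7929 in BCP and 14063 in BCP+MSC. Their part in these results was not tested. The call of Bglap was lost without the second BCP construct (unadjusted p = 0.0752) or the second BCP+MSC+RvE1 construct (unadjusted p = 0.0599).

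MSC with Treg gave 1 gene higher than BCP, Ibsp, and 0 lower, against 3.77% and 2.09% of all genes. Ibsp was at least 3.53-fold above the BCP floor per library in these constructs (fitted log2 fold change 4.60 ± 1.61, SE, edgeR, unadjusted p = 0.00921, adjusted p = 0.614). Without the fourth BCP+MSC+Treg construct it was at least 1.99-fold above the floor, and the fitted value was 3.95 (unadjusted p = 0.025, adjusted p = 0.297). Without the third BCP construct the fitted value of Ibsp was 7.18. The 4 constructs with Treg had 13, 6, 28 and 11 Ibsp counts, and all lay above the BCP constructs (exact permutation test, p = 0.0286), where 2.61% of all genes did not overlap. Bglap had 3, 1, 3 and 0 counts in them and Bglap2 3, 4, 0 and 0. For 8 neutrophil genes the summed level was 559, 946, 474 and 159 CPM with Treg, and at most 310 CPM in BCP. For 8 skeletal muscle genes its median was 19492 CPM with Treg and 7929 CPM in BCP, with overlapping values. Their part in these results was not tested.

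The effect of priming was read against BCP+MSC. BCP+MSC+RvE1 gave 0 of the 10 genes higher and 0 lower (edgeR, unadjusted p under 0.05), against 1.11% and 1.39% of all genes. For Ibsp the log2 fold change was -0.56 ± 1.05 (SE, unadjusted p = 0.6). Without the fourth BCP+MSC construct it was 2.69 (unadjusted p = 0.009, adjusted p = 0.913), and Ibsp and Bglap2 were then called higher. The sign of the difference in Ibsp between these groups thus turned with 1 construct.

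**Figure D3:**
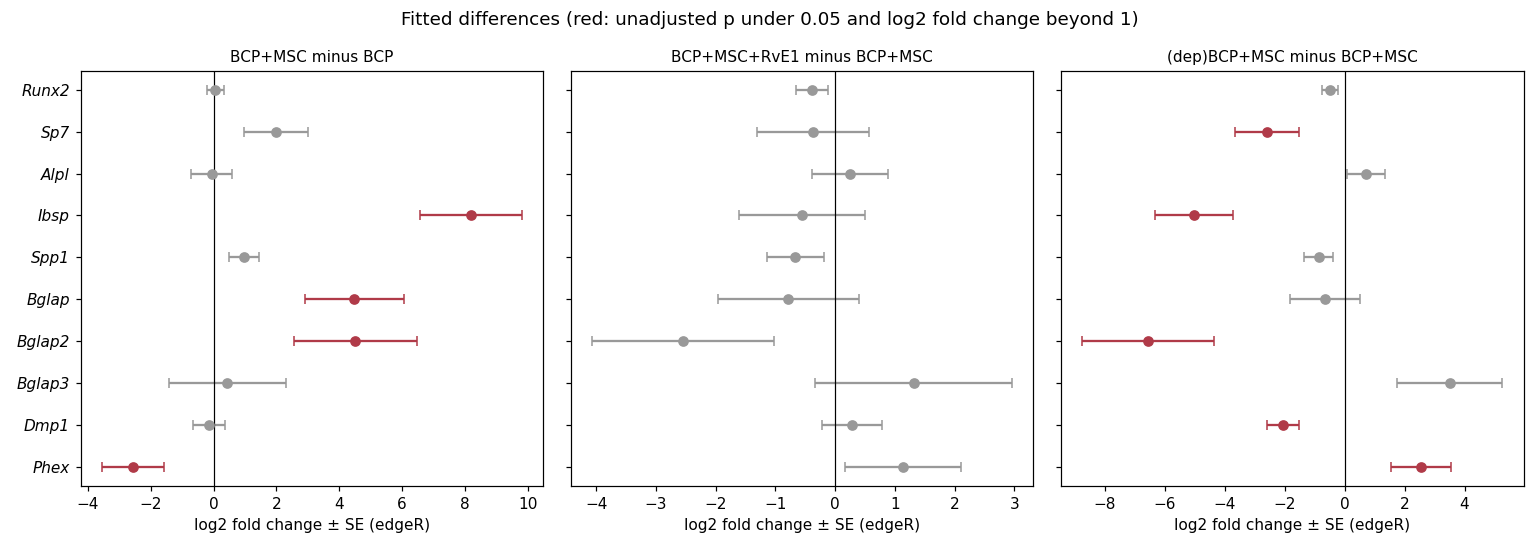
Fitted log2 fold change ± SE (horizontal axis, edgeR) of the 10 genes (vertical axis, from early to late) in 3 comparisons, each with its own scale. Red points are the calls: Ibsp, Bglap and Bglap2 higher and Phex lower in BCP+MSC than BCP, none for RvE1 priming, and in (dep)BCP+MSC Sp7, Ibsp, Bglap2 and Dmp1 lower and Phex higher than in BCP+MSC.

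BCP+MSC+Treg gave 1 gene higher and 1 lower than BCP+MSC, against 1.24% and 1.33% of all genes. Phex was higher, with 8, 17, 17 and 2 counts (log2 fold change 2.30 ± 0.97, SE, edgeR, unadjusted p = 0.0266, adjusted p = 1), and no CPM value overlapped (exact permutation test, p = 0.0286), as was so for 1.05% of all genes. Its p-value lay between 0.0502 and 0.0697 in the fits without the first or second BCP+MSC construct or without the second or the third BCP+MSC+Treg construct. Ibsp was at a log2 fold change of -3.59 ± 1.20 (SE, unadjusted p = 0.00697, adjusted p = 1), and was called lower, but the groups overlapped (exact permutation test, p = 0.257). Without the fourth BCP+MSC construct the value was -0.32 (unadjusted p = 0.725). Summed neutrophil genes were at 159 to 946 CPM (median 516) in BCP+MSC+Treg and at 154 to 291 CPM (median 227) in BCP+MSC. Their part in these differences was not tested.

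Between the primed groups, 1 gene, Ibsp, was lower in BCP+MSC+Treg than in BCP+MSC+RvE1 and 0 were higher. Of all genes 1.04% were lower and 1.18% higher. The log2 fold change was -3.03 ± 1.18 (SE, edgeR, unadjusted p = 0.018, adjusted p = 1), and it was -1.85 (unadjusted p = 0.123) without the third BCP+MSC+RvE1 construct. The call was also lost without the first or the second BCP+MSC+Treg construct. The exact permutation test gave p = 0.0571, and the values overlapped.

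In mice given toxin, constructs with MSC had lower Sp7, Ibsp, Bglap2 and Dmp1 and higher Phex than BCP+MSC in mice without toxin. This was 4 genes lower and 1 higher, when 6.53% of all genes were lower and 6.65% higher. At an adjusted p-value under 0.05 the count was 2 lower, Ibsp and Dmp1, and 0 higher, against 1.8% and 1.34% of all genes. The values of 4 members, Ibsp, Dmp1, Phex and Bglap3, did not overlap between these groups, as was so for 9.15% of all genes. The median log2 fold change of the 10 genes was -0.77, or -0.75 with genes at the floor set to their bounds, beside -0.04 over all genes. DESeq2 called the same genes except Bglap2, for which it gave no p-value.

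Dmp1, an osteocyte matrix protein, was at lower levels in every (dep)BCP+MSC construct than in every BCP+MSC construct. It was at 0, 0.241, 0.2 and 0.273 CPM in (dep)BCP+MSC and at 0.464, 1.36, 0.695 and 0.802 CPM in BCP+MSC. The other groups were at 0.7, 0.658, 0.932 and 1.45 CPM (BCP), 0.803, 1.20, 1.04 and 1.01 CPM (BCP+MSC+RvE1), 0.814, 0.745, 0.588 and 0.411 CPM (BCP+MSC+Treg) and 0.409, 0.431, 0.0746 and 0.355 CPM ((dep)BCP+MSC+RvE1inj). All 4 (dep)BCP+MSC values lay below the 16 values of the groups without toxin. The log2 fold change against BCP+MSC was -2.05 ± 0.54 (SE, edgeR, unadjusted p = 0.000873, adjusted p = 0.0321; exact permutation test, p = 0.0286). It stayed between -2.25 and -1.70 without each construct in turn, while the adjusted p-value ranged from 0.0341 to 0.0997 and was under 0.05 in 2 of 8 fits. Those fits were without the first BCP+MSC construct and without 1 of the (dep)BCP+MSC constructs matched to the group only, while leaving out the first or second (dep)BCP+MSC construct, the other one matched to the group only, or the second, the third or the fourth BCP+MSC construct took it past 0.05. Dmp1 was counted in BCP without cells as it was with MSC, and the group mean of BCP was 0.934 ± 0.363 CPM (SD, n = 4).

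In (dep)BCP+MSC Ibsp was at a log2 fold change of -5.03 ± 1.30 (SE, edgeR, unadjusted p = 0.000835, adjusted p = 0.0314). All 4 Ibsp values were below BCP+MSC (exact permutation test, p = 0.0286). Without the fourth BCP+MSC construct the change was -1.80 (unadjusted p = 0.065, adjusted p = 0.287), and the call was lost. Its adjusted p-value was also past 0.05, from 0.0523 to 0.0992, without any 1 of the (dep)BCP+MSC constructs. Sp7 had 0, 5, 0 and 2 counts in (dep)BCP+MSC and 2, 29, 8 and 31 in BCP+MSC, a log2 fold change of -2.60 ± 1.08 (SE, unadjusted p = 0.0239, adjusted p = 0.173). It was -2.20 (unadjusted p = 0.0652) without the fourth BCP+MSC construct, and the call was also lost without the second BCP+MSC construct or without 1 of the (dep)BCP+MSC constructs matched to the group only. Bglap2 had 0 counts in all 4 (dep)BCP+MSC constructs, and the 57 counts of the fourth BCP+MSC construct made the call (unadjusted p = 0.00707, adjusted p = 0.0977). Its mean in BCP+MSC was at least 1.80-fold above the (dep)BCP+MSC floor per library. Without that construct both groups were at 0.

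Phex was higher in (dep)BCP+MSC than in BCP+MSC by a log2 fold change of 2.54 ± 1.00 (SE, edgeR, unadjusted p = 0.0176, adjusted p = 0.15). It had 6, 9, 12 and 5 counts in (dep)BCP+MSC, and the values did not overlap with BCP+MSC (exact permutation test, p = 0.0286). The call was lost without the first (dep)BCP+MSC construct (1.93, unadjusted p = 0.0644). The mean of (dep)BCP+MSC, 0.265 ± 0.227 CPM, was near that of BCP, 0.257 ± 0.158 CPM (SD, n = 4). BCP+MSC had the lowest mean of the groups, 0.0379 ± 0.0202 CPM from 9 counts, and every call of Phex involved BCP+MSC. Without the fourth BCP+MSC construct the called genes were Dmp1 and Spp1, lower, and Phex, higher. The 2 osteocyte genes thus differed in opposite directions between these groups.

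The summed levels of markers of other cells overlapped between (dep)BCP+MSC and BCP+MSC in all 6 lists compared. That of the macrophage genes, given above, was in 3 of 4 (dep)BCP+MSC constructs below every BCP+MSC construct. The summed level of 8 skin epithelium genes was 19.9 to 413 CPM in (dep)BCP+MSC and 7.77 to 43.8 CPM in BCP+MSC. For 8 skeletal muscle genes it was 18041 to 29127 CPM and 274 to 20954 CPM, for 8 neutrophil genes 63.4 to 446 CPM and 154 to 291 CPM, for 9 chondrocyte genes 19.3 to 38.9 CPM and 22.6 to 49.2 CPM, and for 8 osteoclast and giant cell genes 1449 to 2362 CPM and 1346 to 2272 CPM. No gene of the 6 lists was at 0 in all constructs of either group. With the mean of the skin genes as a covariate, Dmp1 was at -1.93 (adjusted p = 0.0751), Ibsp at -2.79 (adjusted p = 0.181) and Phex at 1.97 (unadjusted p = 0.0739).

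Local injection of RvE1 in mice given toxin gave 1 gene, Sp7, higher than in (dep)BCP+MSC and 0 lower, against 2.62% and 2.5% of all genes. The log2 fold change of Sp7 was 2.47 ± 1.12 (SE, edgeR, unadjusted p = 0.0368, adjusted p = 0.668). It had 13, 6, 12 and 0 counts after injection, and the CPM values overlapped (exact permutation test, p = 0.286). Without the third injected construct the value was 1.01 (unadjusted p = 0.346), and the call was lost without 3 of the 4 (dep)BCP+MSC constructs too. Ibsp had 7, 8, 0 and 0 counts (log2 fold change -0.91 ± 1.33, SE, unadjusted p = 0.5), and Dmp1 was at 0.317 ± 0.165 CPM (SD, n = 4) against 0.178 ± 0.123 (log2 fold change 0.74 ± 0.55, SE, unadjusted p = 0.186).

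The difference between the RvE1 effect by injection in toxin-treated mice and by priming in other mice was tested as a contrast. Delivery, dose and toxin change together in it. Of the 10 genes 0 were called and 0 had a p-value under 0.05 (edgeR), beside 2.02% of all genes called higher and 1.98% lower. The smallest was that of Sp7 (2.84, unadjusted p = 0.0616, adjusted p = 1), for which DESeq2 gave unadjusted p = 0.0439.

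Bglap3 had another pattern than Bglap and Bglap2. It was at 4.09, 2.46, 1.49 and 1.32 CPM in (dep)BCP+MSC, at 0.724, 0.0135, 0.97 and 2.19 CPM in (dep)BCP+MSC+RvE1inj and at 0.218, 0.275, 0.314 and 0 CPM in BCP+MSC. In BCP it was at 0.758, 0, 0 and 0 CPM, in BCP+MSC+RvE1 at 1.89, 0, 0 and 0.0372 CPM and in BCP+MSC+Treg at 1.83, 0.275, 0.042 and 0 CPM. The fourth BCP+MSC construct, highest in Bglap and Bglap2, had 0 counts of Bglap3. All (dep)BCP+MSC values lay above BCP+MSC (exact permutation test, p = 0.0286), while edgeR gave a log2 fold change of 3.51 ± 1.76 (SE, unadjusted p = 0.0598, adjusted p = 0.268) and did not call it. With only these 2 groups in the model Bglap3 was called higher (unadjusted p = 0.00094, adjusted p = 0.0699), as it was with the sex-linked covariate (5.26, unadjusted p = 0.00384, adjusted p = 0.0608).

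The genes whose level was most like Bglap3 over the 24 constructs were Gm16136, Ano9 and the milk casein gene Csn3, with Pearson r from 0.957 to 0.967 among 18350 genes compared. The 13 constructs with at least 10 Bglap3 counts had a summed skin epithelium level of 9.62 to 413 CPM (median 43.3). The 11 with fewer had 1.70 to 16.6 CPM (median 5.77). With the skin covariate the log2 fold change of Bglap3 in (dep)BCP+MSC was 2.09 (unadjusted p = 0.0543) in place of 3.51. The part of skin in the counts of Bglap3 was not tested further.

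**Figure D4:**
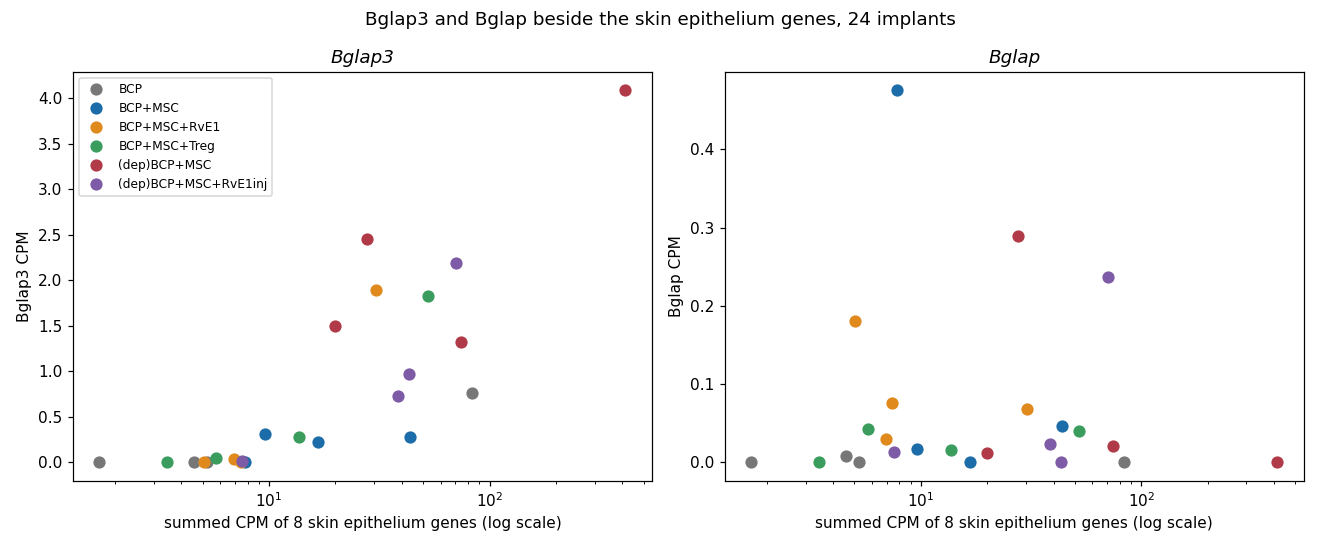
CPM of Bglap3 (left) and Bglap (right, vertical axes) against the summed CPM of 8 skin epithelium genes (horizontal axis, log scale) in 24 constructs, coloured by group. Bglap3 is at or near 0 where the skin sum is under 9 CPM and reaches 4.09 CPM at the highest sum, whereas the highest Bglap value, 0.475 CPM, is at a skin sum of 7.77 CPM.

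Genes most like the other members were named by the same measure over 24 constructs. For Runx2 they were Heatr5a, Msn and Csgalnact1 (r from 0.89 to 0.907), and for Alpl Fam241b, Tmie and Cdo1 (0.847 to 0.857). For Dmp1 they were Aga, the BMP-binding protein Bmper and Treml4 (0.902 to 0.909). Ibsp had less close matches, Gm40761, Nnat and Btrc (0.699 to 0.748). None of the 10 genes was among these matches of another.

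In all, 6 members had at least 10 counts in at least 12 constructs, which gave 15 pairs. After adjustment over the 15 pairs, 4 had a permutation p-value under 0.05. Runx2 and Alpl were negatively related (r = -0.56, rho = -0.61, permutation p = 0.00528 and 0.00178, adjusted p = 0.0198), also without the 2 constructs farthest from the median (r = -0.62) and within groups (r = -0.52). Runx2 and Bglap3 were negatively related too (r = -0.56, rho = -0.70, p = 0.00386 and 3e-04, adjusted p = 0.0193; without 2 constructs -0.67, within groups -0.50). Alpl and Bglap3 were positively related (r = 0.65, rho = 0.66, p = 0.00029 and 0.00066, adjusted p = 0.00435; without 2 constructs 0.62, within groups 0.63). Bglap3 and Dmp1 were negatively related over all constructs (r = -0.59, rho = -0.58, p = 0.00077 and 0.00345, adjusted p = 0.00577; without 2 constructs -0.54), and r was -0.18 within groups. Ibsp and Bglap3 were at r = -0.43 (rho = -0.37, permutation p = 0.0347 and 0.0717, adjusted p = 0.0578; without 2 constructs -0.28), and at r = -0.64 within groups. The relation of Ibsp and Runx2 did not pass the test (r = 0.16, rho = 0.18, p = 0.45 and 0.41, adjusted p = 0.482).

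Beyond the 10 members, 33 other osteoblast and mineral genes were listed, of which 32 were tested. They cover 9 transcription factors, 8 matrix genes, 7 mineral enzymes and transporters, 5 osteocyte genes and 4 receptors or secreted regulators. Against BCP, 1 was higher with MSC, Mepe, an osteocyte phosphoglycoprotein, and 0 were lower, beside 2.49% and 1.83% of all genes. With RvE1-primed MSC 0 were higher and 1, the collagen Col24a1, was lower (log2 fold change -1.14 ± 0.50, SE, edgeR, unadjusted p = 0.0323, adjusted p = 0.303), beside 5.36% and 3.18% of all genes. With Treg 0 were called in either direction, beside 3.77% higher and 2.09% lower. Mepe had 9 of its 10 counts in BCP+MSC in the fourth construct, where Ibsp, Bglap and Bglap2 were highest, and it was at 0 counts in BCP. It had 15 counts in all constructs together and reached the 10 needed for testing only through BCP+MSC. The direction of its calls was therefore fixed by the filter, and nothing is concluded from them. Against BCP+MSC, 1 gene was lower in BCP+MSC+RvE1, Enpp1, which makes the mineral inhibitor pyrophosphate (-1.01 ± 0.38, SE, edgeR, unadjusted p = 0.014, adjusted p = 0.924). Its values overlapped, at 13.5 to 34.1 CPM in BCP+MSC+RvE1 and 26.4 to 117 CPM in BCP+MSC. In BCP+MSC+Treg 1 was lower, Mepe, at 0 counts there, a direction that the filter fixed. Of all genes 1.39% and 1.33% were lower in these comparisons, and 0 genes of the list were higher in either.

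In (dep)BCP+MSC against BCP+MSC 11 of the 32 genes were lower and 4 higher (edgeR, unadjusted p under 0.05 with a log2 fold change beyond 1), beside 6.53% and 6.65% of all genes. The 11 include Mepe, which was tested only through its counts in BCP+MSC. At an adjusted p-value under 0.05 the counts were 5 and 1, beside 1.8% and 1.34% of all genes. The median log2 fold change of the 32 genes was -0.45, or -0.41 with genes at the floor set to their bounds, beside -0.04 over all genes. Of the 8 matrix genes 5 were lower, Col1a1, Col1a2, Col24a1, Sparc and Ogn, and 0 higher. Of the 9 transcription factors 0 were called in either direction, and of the 4 receptors and regulators 1, the parathyroid hormone receptor Pth1r, was lower.

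Among the mineral enzymes and transporters Enpp1, Fam20c and Smpd3 were lower and Phospho1 and the phosphate transporter Slc20a2 higher. The single values of Enpp1, Smpd3 and Phospho1 overlapped between the groups. Smpd3, a sphingomyelinase needed for mineralisation, was at 12.3 ± 7.61 CPM against 88.9 ± 98.1 CPM (SD, n = 4; log2 fold change -2.84 ± 0.78, SE, edgeR, unadjusted p = 0.00167, adjusted p = 0.0461). Of the 4 osteocyte genes tested 2 were higher and 2 lower. Fgf23, the hormone of osteocytes that lowers phosphate, was at 1.81 ± 0.609 CPM against 0.269 ± 0.292 (2.70 ± 0.88, SE, unadjusted p = 0.00504, adjusted p = 0.0811). Irx5 was higher (1.39 ± 0.63, SE, unadjusted p = 0.037, adjusted p = 0.214). Mepe was lower, at 0 counts, a direction fixed by the filter, as above. Pdpn, an early osteocyte glycoprotein, was lower too (-1.13 ± 0.34, SE, unadjusted p = 0.00263, adjusted p = 0.0587). Pth1r, Pdpn and the type I collagen gene Col1a1 were named after their values were seen. Col1a1 was at 2451 ± 1174 CPM against 7148 ± 2055 CPM (-1.54 ± 0.45, SE, unadjusted p = 0.00198, adjusted p = 0.0503). After RvE1 injection 0 of the 32 genes were called against (dep)BCP+MSC, beside 2.62% higher and 2.5% lower of all genes.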

How the data were processed

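RNA sequencing counts of 24 constructs in 6 groups of 4 were analysed. Per the labels and the study's methods, the authors aligned paired reads of stranded mRNA libraries with HISAT2 2.0.5 and counted them on exons with featureCounts 1.5.2 and GENCODE M13 (GRCm38). The deposited values are raw counts for 51138 genes. The recorded command sets no strand, so overlapping genes can lose counts. Near-identical copies lose counts because read pairs with several alignments were not counted. Symbols matched 50376 identifiers. Total counts ran from 8482701 to 144417743.

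Genes with at least 10 counts in total were kept, 30564 of the 39183 with any count. A single edgeR 4.0.16 quasi-likelihood model (TMM, robust, no covariates) covered all groups, and p-values were adjusted by Benjamini-Hochberg over all genes tested. CPM are TMM-scaled, and log2 CPM use a prior count of 2. A gene was called at an unadjusted p-value under 0.05, and separately at an adjusted one, with a log2 fold change beyond 1. The exact two-sided permutation tests used 70 arrangements for each of 80 gene and comparison pairs, and correlations 100000 permutations. The model fits were first checked with simulated data. The genes changed in it were drawn from mean levels above those of Sp7, Phex, Bglap and Bglap2. False calls were counted at an adjusted p-value only, so the check does not cover false calls at an unadjusted one. P-values measure the spread between constructs of different mice.

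The members and gene lists were chosen with earlier results of these data known. Members were named with values in every construct where at least 10 counts were reached in at least 12 constructs, and log2 fold changes where the unadjusted p-value was under 0.05 or the text needed them. Of the pathway list at most the 2 highest and 2 lowest called genes per comparison were named with values, and the 3 genes most like a member by Pearson r. Of that list 1 gene is not reported here. Alternatives were RLE normalization, other filters, only the compared groups, DESeq2 1.42.0, a replicate block, covariates for library size and sex-linked genes, each construct left out, linear CPM, a prior count of 0.5 and, chosen after seeing the data, a covariate for skin genes. Promoter sequences are from RefSeq (GRCm38.p6), transcripts from GENCODE M21. Tables were handled in R 4.3.3 and Python 3.11.15.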

Additional observations from a re-analysis of the deposited data

Results flagged for a closer look

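In groups of 4 constructs, a value far from the other 3 was found in 11 of 54 sets of 1 gene and 1 group by Dixon's criterion, the gap to its nearest neighbour over the range. For normally distributed values chance gives about 1 in 20 such sets, and the rate for low counts such as these was not measured. Of the 11, 4 were in the fourth BCP+MSC construct, with Ibsp at 15.4 CPM, Bglap at 0.475 CPM and Bglap2 at 0.846 CPM above the rest of the group and Spp1 at 3586 CPM below it. In the third (dep)BCP+MSC+RvE1inj construct Runx2 was low at 11.8 CPM and Sp7 high at 0.895 CPM. Bglap was high at 0.289 CPM in the second (dep)BCP+MSC construct and at 0.237 CPM in the fourth (dep)BCP+MSC+RvE1inj construct. Bglap3 was high in the first construct of BCP at 0.758 CPM, of BCP+MSC+RvE1 at 1.89 CPM and of BCP+MSC+Treg at 1.83 CPM. The summed skin epithelium level of these 3 constructs was 83.4, 30.5 and 52.3 CPM, against 1.70 to 13.7 CPM in the other constructs of their groups.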

How the results depend on the processing

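Counts of called members per comparison were recomputed under up to 9 other settings and without each construct. The filterByExpr filter left Bglap and Bglap2 untested, so that 2 members were called in BCP+MSC against BCP and 1 in BCP+MSC+RvE1 against BCP, while the calls over all genes went from 1320 to 548 and from 2610 to 1845. With the sex-linked covariate 2 were called in BCP+MSC+RvE1 against BCP+MSC, 0 for injection against (dep)BCP+MSC and 1 in the contrast of injection and priming, where all genes gave 974, 1252 and 1289 calls in place of 763, 1567 and 1222. DESeq2 also gave 1 in that contrast. With only the 2 groups compared 0 were called for injection (1307 of all genes) and 0 passed the adjusted threshold in (dep)BCP+MSC against BCP+MSC, where the skin covariate also gave 0. In the test over all groups 1 member passed without a filter and 1 with the skin covariate. For settings other than the filter the cause was not tested.

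The replicate numbers did not pair the constructs (mean r -0.000983 over 50 same-number pairs). The fit with the replicate block also left out the 2 (dep)BCP+MSC constructs matched to the group only, so that the block and the loss of these constructs cannot be told apart. With the replicate block, over 22 samples, 3 members were called in (dep)BCP+MSC against BCP+MSC (4944 of all genes in place of 4029), Dmp1 (adjusted p = 0.0597), Phex and Spp1, and 1 passed the adjusted threshold, Spp1 (-2.38, adjusted p = 0.00942). Ibsp (-2.63, unadjusted p = 0.127), Sp7 and Bglap2 were not called there. Spp1 was the 1 call in place of Sp7 (1.38, unadjusted p = 0.334) for injection and the 1 call in the contrast of injection and priming, and 1 member, Ibsp, passed over all groups.

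Without each construct in turn the counts ranged from 3 to 5 in BCP+MSC against BCP, 1 to 3 for RvE1 against BCP, 1 to 2 for Treg against BCP, 0 to 2 for RvE1 against BCP+MSC, 1 to 2 for Treg against BCP+MSC, 0 to 2 for Treg against RvE1, 3 to 6 for (dep)BCP+MSC against BCP+MSC (0 to 2 at the adjusted threshold), 0 to 1 for injection, 0 to 2 for the contrast and 1 to 2 over all groups. The log2 fold change of Bglap2 in BCP+MSC against BCP ranged from -2.27 to 6.62. The direct permutation tests gave 10 p-values under 0.05 of 80 on either scale, all from groups that did not overlap (12.5%, against 3.82% of the gene and comparison pairs of all genes). These 10 are not independent, since Ibsp recurs against the same BCP constructs and Phex against the same BCP+MSC constructs. The members were also chosen with earlier results known, so no excess is concluded from these shares. With either prior count 4 of 15 pairs of members were related. Depth limits Sp7, Bglap, Bglap2 and Phex, which had 200, 81, 77 and 168 counts in all constructs together.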
